A study of Mus musculus with 8 samples.

Results

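The genes described here take glutamine apart and use what is left in the kidney: Gls2, Glud1, Glul, Got1, Got2, Gpt2, Pck1 and Pck2. They were taken by symbol from the table of counts per gene, where all 8 were found among 25240 symbols, and all 8 passed the filter on low counts, as did 14284 genes (56.6%) in all. The counts came from RNA-seq of 8 libraries of mouse kidney cells, 4 Tomato-negative and 4 Tomato-positive. The labels call the cell type of every library proximal tubular epithelial cell. Both groups came from p16-tdTomato mice, and both had chronic kidney disease (CKD) brought about by a diet rich in adenine, so that no library of a healthy kidney is part of the comparison. In the genotype's name, p16 is an inhibitor of the cell cycle that is used as a marker of senescence and tdTomato is a red fluorescent protein. The sources used here do not state the reporter's construction, the sorting gates or the age of the mice. The series is about what sets senescent cells apart in a diseased kidney.

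Glutaminase splits the amide group off glutamine and leaves glutamate and ammonium. Glutamate dehydrogenase and the aminotransferases then turn glutamate into the acid 2-oxoglutarate, which the citric acid cycle carries on to malate and oxaloacetate, and PEP carboxykinase starts glucose synthesis from oxaloacetate. In the proximal tubule this route supplies ammonium for the excretion of acid together with new glucose and bicarbonate, and it is raised in acidosis.

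The titles carry 4 identifiers, 2 with the prefix CKD523 (CKD523_2 and CKD523_3) and 2 with the prefix CKD627 (CKD627_1 and CKD627_2), and each belongs to a Tomato-negative and a Tomato-positive library. What the prefixes stand for is not stated in the labels. Total counts ran from 13474439 to 19886202, so that a floor of 3 counts stood for between 0.151 and 0.223 CPM (each count divided by the library total, on a common scale). That floor covers counting error only. The tdTomato transgene lay between 79.5 and 159 CPM in the Tomato-negative libraries and between 3170 and 4140 CPM in the positive ones. Counts of Cdkn2a, the gene of p16, were low in both groups (4 to 39 and 6 to 57). The 18 proximal tubule markers summed to between 7576 and 28472 CPM in the negative and between 5064 and 12648 CPM in the positive libraries. They summed to between 12195 and 28472 CPM in CKD523 and between 5064 and 9168 CPM in CKD627. All 7 principal cell markers were higher in Tomato-positive cells in the paired fit described below, with sums of 195 to 2259 CPM in the negative and 968 to 5293 CPM in the positive libraries. Loop of Henle markers summed to between 1647 and 14686 CPM, so the libraries held RNA of other tubule cells beside the labelled type. In RNA from many cells, fewer cells of a type and less RNA per cell cannot be told apart.

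The Tomato groups were compared with edgeR's quasi-likelihood test over all 14284 tested genes, first without the identifiers (the unpaired fit) and then with the identifier as a block (the paired fit). A gene passed at a Benjamini-Hochberg adjusted p under 0.05. In the unpaired fit 1 of the 8 genes, Got1, passed, beside 0.595% of all tested genes. In the paired fit 3 of the 8 passed, Got1, Got2 and Pck1, all lower in Tomato-positive cells, beside 7.62% of all tested genes in either direction and 3.81% on the lower side. The median log2 difference of the 8 genes was -0.50 in the paired and -0.30 in the unpaired fit, where that of all tested genes was 0.01. The paired median lies midway between Glud1 and Gls2, and Gls2 had few counts. Ammonium-using Glul and mitochondrial Gpt2 and Pck2 did not pass in either fit, nor did Glud1 and Gls2. The labels do not say that the identifiers are separate animals, and the p-values measure the spread between these libraries.

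**Figure D1:**
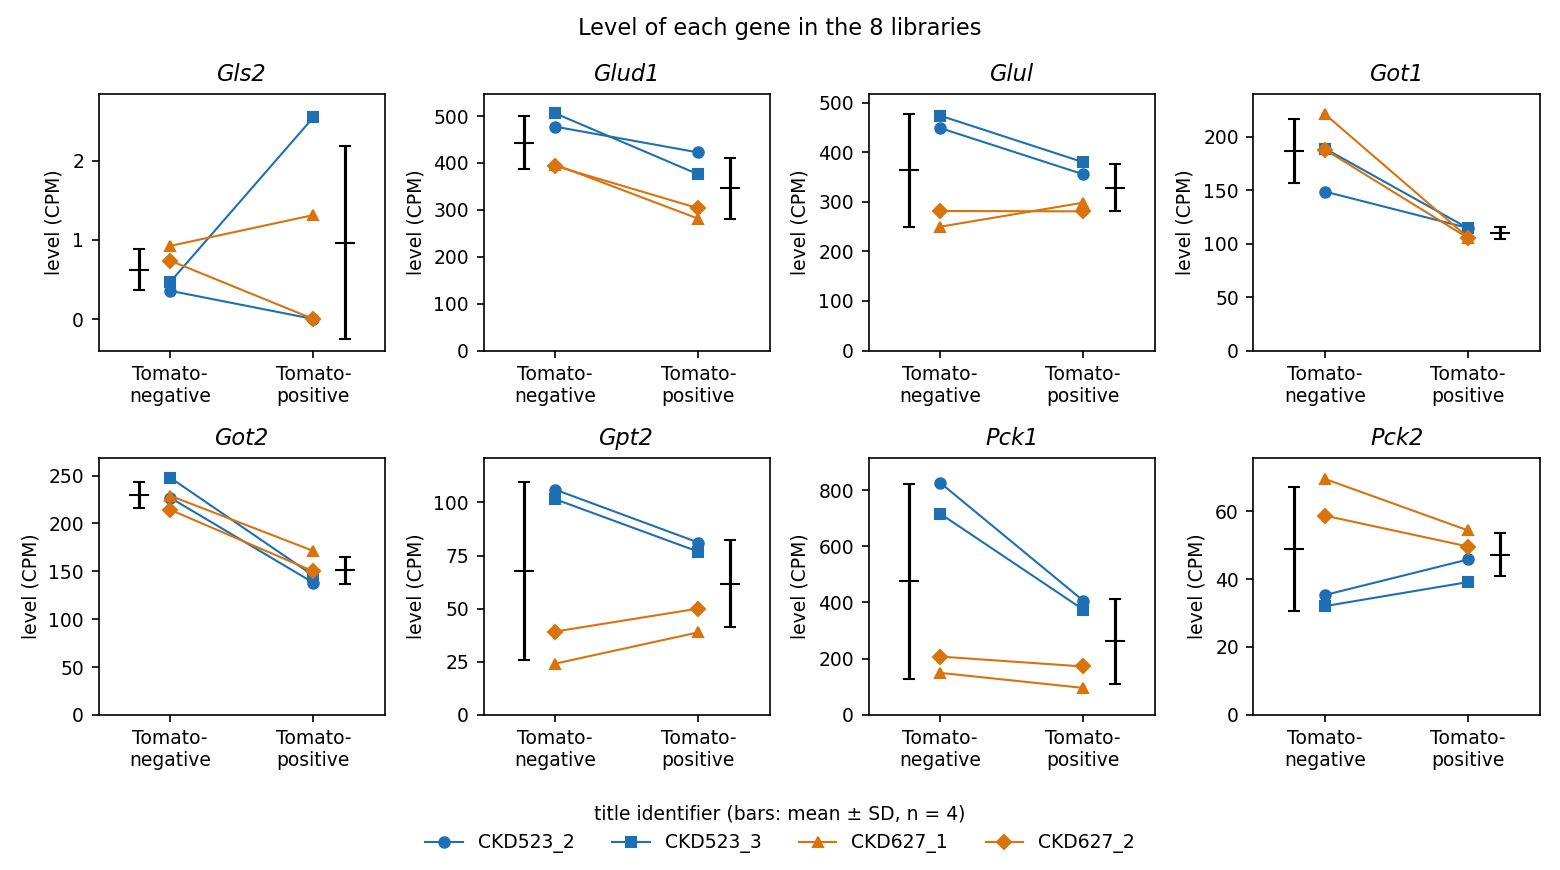
Level in CPM (linear axes) of the 8 genes in each library, with a line joining the Tomato-negative and the Tomato-positive library of 1 identifier, CKD523 in blue and CKD627 in orange. Black bars give the mean ± SD of 4 libraries. Got1 and Got2 are separated by Tomato group, Pck1, Gpt2, Glul and Pck2 by prefix, and Gls2 stays under 3 CPM.

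Gls2, which encodes the liver-type glutaminase, was close to the limit of detection. Its counts were 5, 8, 15 and 11 in the negative libraries and 0, 45, 20 and 0 in the positive ones, each in the order CKD523_2, CKD523_3, CKD627_1 and CKD627_2, which is kept below. The highest and the lowest libraries were both Tomato-positive, and a count of 0 allows up to 0.223 CPM in positive CKD523_2 and 0.151 CPM in positive CKD627_2. The fitted difference changed sign between the fits, 0.62 ± 1.25 unpaired (adjusted p = 0.832) and -0.60 ± 1.37 paired (adjusted p = 0.83). The spread among the positive libraries was wider than the difference between the groups. In mm10 the gene lies on chromosome 10 at 128194457 to 128210004 and overlaps Spryd4 on the opposite strand, whose reads cannot be told apart with certainty.

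Glud1 encodes glutamate dehydrogenase, which releases the second nitrogen of glutamine as ammonium. Its level was 478, 506, 397 and 394 CPM in the negative libraries and 422, 376, 281 and 303 CPM in the positive ones. The positive library was the lower one in 4 of 4 pairs, a pattern that 15.5% of all tested genes shared, and the groups overlapped. The mean went from 443 ± 56.9 to 346 ± 65.2 CPM (SD, n = 4). The paired log2 difference of -0.41 ± 0.13 (95% bounds -0.70 and -0.11) missed the threshold with an edgeR adjusted p of 0.093, and the unpaired one of -0.40 with 0.36. With the prefix as a covariate in place of the identifier it passed (adjusted p = 0.0424), as it did in the paired fit of DESeq2 (adjusted p = 0.0223).

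Got1 and Got2 encode the cytosolic and the mitochondrial aspartate aminotransferase. Both move the amino group of glutamate onto oxaloacetate, and together they carry the malate-aspartate shuttle, which brings reducing equivalents into mitochondria. Got1 was at 149, 189, 221 and 188 CPM in the negative libraries and at 114, 114, 106 and 105 CPM in the positive ones. Every positive library lay below every negative one, and the positive libraries were close to each other. Means were 186 ± 29.6 and 110 ± 5.19 CPM (SD, n = 4). The log2 difference was -0.79 ± 0.14 unpaired (edgeR adjusted p = 0.0497) and -0.79 ± 0.15 paired (95% bounds -1.12 and -0.46, adjusted p = 0.0165), a paired level 0.578 times that of negative cells. Got2 was at 227, 248, 229 and 214 CPM in the negative and at 138, 146, 171 and 150 CPM in the positive libraries, again without overlap. Its means were 229 ± 13.8 and 151 ± 14.2 CPM (SD, n = 4). Its log2 difference was -0.65 ± 0.13 unpaired, just short of the threshold (adjusted p = 0.0618), and -0.64 ± 0.14 paired (95% bounds -0.95 and -0.34, adjusted p = 0.0257). Groups without overlap were found for 2 of the 8 genes, Got1 and Got2, and for 12.8% of all tested genes in either direction, 5.69% with the positive libraries below.

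In the unpaired fit Got1 no longer passed when any 1 of the 8 libraries was left out (adjusted p between 0.0694 and 0.17), while its log2 difference stayed between -0.88 and -0.74. The calls over all genes dropped from 85 to between 6 and 26 in those fits. Got1 did not pass either when libraries were scaled by their totals or by upper quartiles. In the paired fit Got1 was lost without the pair CKD523_3 (0.0912) or CKD627_2 (0.0825), and Got2 without CKD523_2 (0.104), CKD523_3 (0.136) or CKD627_2 (0.0854). The log2 difference itself stayed between -0.92 and -0.69 for Got1 and between -0.71 and -0.59 for Got2 in the paired fits. Within the prefixes, 2 libraries against 2 with the spread shared over all 8, Got1 was lower in CKD523 (-0.64, adjusted p = 0.0472) and in CKD627 (-0.96, adjusted p = 0.0158). Got2 was lower in CKD523 (-0.82, adjusted p = 0.00909) and at -0.47 in CKD627 (adjusted p = 0.0845). Within CKD523 3 of the 8 genes passed, Got1, Got2 and Pck1, beside 7.95% of all tested genes, and within CKD627 Got1 alone, beside 6.22%.

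Got1 lies on the minus strand of chromosome 19 at 43499752 to 43524605 in mm10 and overlaps no annotated gene. Got2 lies on the minus strand of chromosome 8 at 95864134 to 95888547 and overlaps the unconfirmed transcript Gm45760 on the opposite strand.

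**Figure D2:**
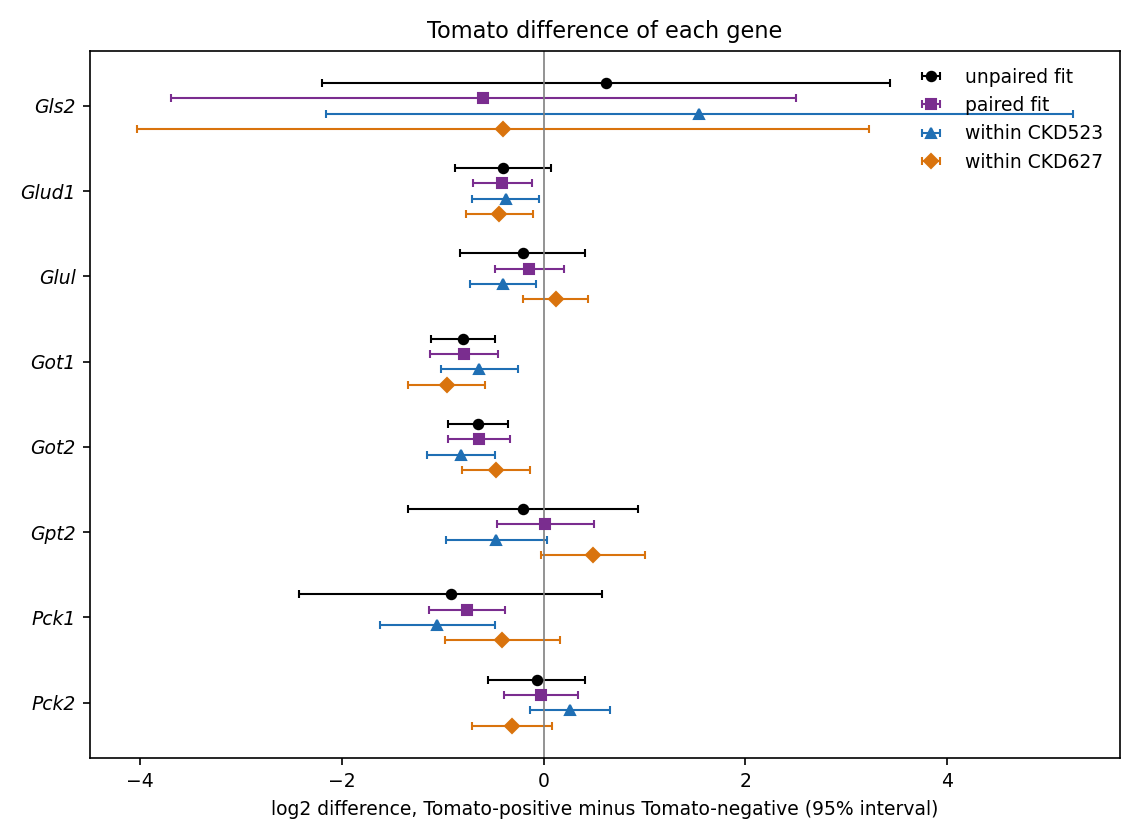
Log2 difference, Tomato-positive minus Tomato-negative, of each gene in the unpaired fit (black), the paired fit (purple) and within each prefix (blue and orange), with 95% intervals from edgeR. The intervals of Got1 lie below 0 in all 4 estimates, those of Pck1 are wide in the unpaired and narrow in the paired fit, and those of Gls2 span several log2 units.

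Pck1 encodes the cytosolic PEP carboxykinase, a rate-setting step of glucose synthesis and a gene of the proximal tubule. It was at 826, 716, 149.5 and 207 CPM in the negative libraries and at 406, 374.5, 95.9 and 172 CPM in the positive ones. The lowest CKD523 library lay above the highest CKD627 library. In each of the 4 pairs the positive library was the lower one. Means were 475 ± 346 and 262 ± 152 CPM (SD, n = 4), and the unpaired log2 difference of -0.92 ± 0.67 did not pass (adjusted p = 0.502). The paired log2 difference was -0.76 ± 0.17 (95% bounds -1.14 and -0.38, edgeR adjusted p = 0.0297), a level 0.591 times that of negative cells. It was lost without the pair CKD523_2 (0.115) or CKD523_3 (0.144). Within CKD523 the difference was -1.05 ± 0.26 (adjusted p = 0.032) and within CKD627 -0.41 ± 0.26 (adjusted p = 0.339). The difference between those estimates, 0.64 ± 0.37, did not pass (adjusted p = 0.469).

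Pck2 encodes the mitochondrial form of the same enzyme. It was at 35.3, 32.0, 69.5 and 58.7 CPM in the negative and at 45.8, 39.1, 54.3 and 49.6 CPM in the positive libraries. Positive cells were higher in both CKD523 pairs and lower in both CKD627 pairs, and the paired difference was -0.03 ± 0.16 (95% bounds -0.40 and 0.35, adjusted p = 0.944). The count of Pck1 was 23.4 and 22.4 times that of Pck2 in the negative CKD523 libraries and 8.87 and 9.57 times in the positive ones. In CKD627 it was 2.15 and 3.53 times in the negative and 1.77 and 3.47 times in the positive libraries. These ratios are of raw counts within a library and are not corrected for the length of the transcripts. Pck1 lies on chromosome 2 at 173153048 to 173159273 with no overlapping gene. Pck2 lies on chromosome 14 at 55540266 to 55551242, overlapped by the antisense gene Gm10876.

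The sequences upstream of these genes are shown because Got1 and Pck1 passed the paired fit while Pck2 did not, although Pck2 encodes the same enzyme activity as Pck1. Got2 passed as well, but its window overlaps an annotated Got2 transcript and is not printed. The printed sequences are the 120 bases just before the start site that RefSeq gives on build GRCm38.p6, on the gene's own strand. For Pck1 that site lies inside the gene as annotated by GENCODE, which begins at 173153048. The end of the printed Pck1 sequence therefore overlaps the annotated gene. Capitals mark a match to the cyclic AMP response element (TNACGTCA) or to the composite element of C/EBP and ATF factors (TGATGNAA), searched on both strands.
Pck1, chr2:173152953-173153072, plus strand: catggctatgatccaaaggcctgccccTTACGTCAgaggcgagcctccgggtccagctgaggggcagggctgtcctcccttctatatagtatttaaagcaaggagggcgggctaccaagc
Got1, chr19:43524606-43524725, minus strand: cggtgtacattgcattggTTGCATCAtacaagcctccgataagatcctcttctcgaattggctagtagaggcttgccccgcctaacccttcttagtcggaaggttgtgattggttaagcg
Pck2, chr14:55540146-55540265, plus strand: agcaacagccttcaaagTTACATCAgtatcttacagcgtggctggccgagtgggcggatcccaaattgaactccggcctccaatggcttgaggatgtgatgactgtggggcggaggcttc

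The Pck1 match covers bases 93 to 86 before the start and is on the gene's strand. The matches of Got1 (bases 102 to 95) and Pck2 (bases 103 to 96) are on the opposite strand. Among 32851 promoter windows of 250 bases, 2.52% held the first motif and 3.45% the second. The CCAAT box (CCAAT, both strands) had 5 matches in the 250 bases before Got1 and occurs in 33.8% of all windows. A match describes these letters only, and no binding was measured. In the 250 bases before Got2, Gpt2 and Glud1 none of the 3 motifs was found, and before Glul only the CCAAT box (2 matches). Of the 8 genes 7 had an entry in the RefSeq table of promoters, the exception being Gls2.

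Glul encodes glutamine synthetase, which makes glutamine from glutamate and takes ammonium up again. It was at 449, 474, 250 and 282 CPM in the negative libraries and at 356, 380, 299 and 281 CPM in the positive ones. Both CKD523 pairs were lower in positive cells and the CKD627 pairs were nearly level or higher, so the groups overlapped. The paired log2 difference was -0.14 ± 0.15 (95% bounds -0.49 and 0.21, adjusted p = 0.614).

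Gpt2 encodes the mitochondrial alanine aminotransferase, which passes the amino group of glutamate to pyruvate. It was at 106, 102, 24.1 and 39.2 CPM in the negative and at 81.1, 76.8, 38.8 and 50.03 CPM in the positive libraries. Positive cells were lower in both CKD523 pairs and higher in both CKD627 pairs. The paired difference was therefore near 0 over all pairs, 0.02 ± 0.21 (95% bounds -0.47 and 0.50, adjusted p = 0.974), with -0.47 within CKD523 (adjusted p = 0.282) and 0.49 within CKD627 (adjusted p = 0.207). The change in the Tomato difference from CKD523 to CKD627 was 0.96 ± 0.33 for Gpt2, 0.52 ± 0.21 for Glul and -0.57 ± 0.26 for Pck2. None of the 8 genes passed that test over all genes, with adjusted p of 0.279, 0.332 and 0.375 for these, 3 of 8 at an unadjusted p under 0.05, and none in DESeq2 either. Only 0.014% of all tested genes passed it. Without the negative CKD627_2 library the estimate for Gpt2 was 1.34, from a fit that kept a single negative CKD627 library.

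The prefixes were compared in a fit with the Tomato group as a covariate. Of the 8 genes 4 fell from CKD523 to CKD627, Pck1, Gpt2, Glul and Glud1, and none rose, beside 21.1% of all tested genes that passed in either direction and 11.4% that were lower in CKD627. Pck1 fell by 1.97 on the log2 scale (SE 0.22, adjusted p = 0.000224) from 581 ± 225 to 156 ± 46.8 CPM (SD, n = 4). Gpt2 fell by 1.42 (SE 0.22, adjusted p = 0.00125) from 91.4 ± 14.5 to 38.0 ± 10.6 CPM. Glul fell by 0.72 (SE 0.14, adjusted p = 0.00322) and Glud1 by 0.53 (SE 0.11, adjusted p = 0.00621). Pck2 differed the other way, by 0.46 ± 0.15, and just missed the threshold (adjusted p = 0.0556), which it passed in 6 of 19 alternatives. Got1 (-0.07 ± 0.13, adjusted p = 0.775) and Got2 (-0.11 ± 0.12, adjusted p = 0.594) did not pass, with 95% bounds of -0.37 and 0.22 and of -0.38 and 0.16.

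The 4 libraries of each prefix did not overlap for Glul, Gpt2 and Pck1, which were lower in CKD627, nor for Pck2, which was higher. That was the case for 22.1% of all tested genes. Libraries that share an identifier entered this fit as separate samples. With their counts summed, 2 identifiers against 2, Pck1 (-2.09), Gpt2 (-1.44), Glul (-0.77) and Glud1 (-0.57) passed again. Glud1 lost its call without the identifier CKD523_2 (adjusted p = 0.0733) or CKD523_3 (0.0505) and in the Tomato-negative libraries alone (-0.55, adjusted p = 0.0864). The proximal tubule markers moved with the prefix: 15 of 18 were lower in CKD627, with a median log2 difference of -1.70, and none higher. Markers of other cells were higher there, 6 of 6 of loop of Henle, 6 of 7 of principal cells, 5 of 6 of intercalated cells, 5 of 6 of endothelial cells (median 1.88), 2 of 5 of the distal tubule, 2 of 6 of macrophages and leukocytes, 2 of 6 of fibroblasts and mural cells and 0 of 4 of podocytes. None of these lists had a marker that passed on the lower side. The part of the cell mixture in the fall of Pck1, Gpt2, Glul and Glud1 was not tested, and the prefix cannot be told apart from any condition that went with it.

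**Figure D3:**
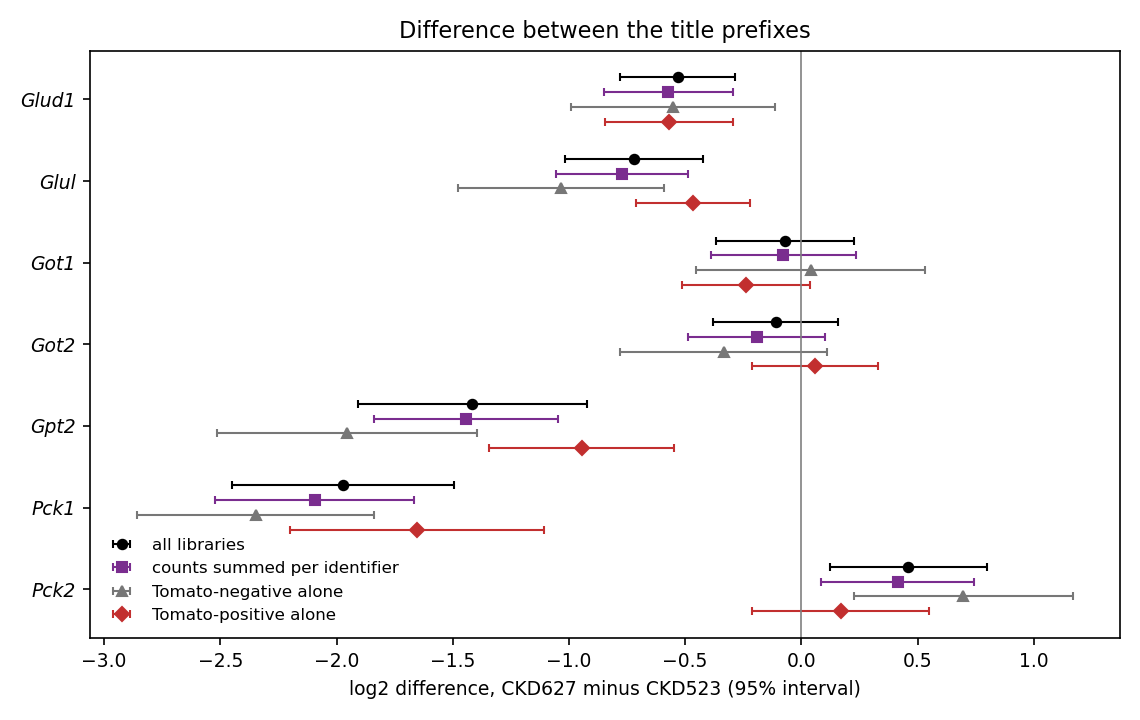
Log2 difference, CKD627 minus CKD523, with 95% intervals from edgeR, over all libraries (black), on counts summed per identifier (purple) and in the Tomato-negative (grey) or Tomato-positive (red) libraries alone. Pck1, Gpt2, Glul and Glud1 lie below 0 in each estimate, the intervals of Got1 and Got2 include 0 in each, and Pck2 lies above 0 with an interval that includes 0 in the Tomato-positive libraries. Gls2, whose intervals are far wider, is left out.

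Levels can be compared between genes only per length, here CPM per kilobase of the annotated exons of GENCODE M21. That length joins the exons of all annotated transcripts, 7806 bases over 13 transcripts for Pck2 and 3429 over 4 for Pck1. A longer joined length gives a lower level, so the order depends partly on the annotation. Over all 8 libraries Pck1 had 107 ± 79.4, Glul 104 ± 24.98 and Glud1 93.7 ± 18.3 CPM per kilobase (SD, n = 8), and the libraries of these overlapped. Got1 followed with 58.3 ± 17.9 and Got2 with 39.5 ± 9.08, and each neighbouring pair from Glud1 to Got2 overlapped in range. Gpt2 (11.5 ± 5.47) and Pck2 (6.15 ± 1.62) came next and overlapped as well, and Gls2 was last with 0.228 ± 0.241. In the negative libraries Got1 stood at 73.4 ± 11.6 CPM per kilobase and Got2 at 47.6 ± 2.86, in the positive ones at 43.3 ± 2.04 and 31.3 ± 2.95 (SD, n = 4).

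**Figure D4:**
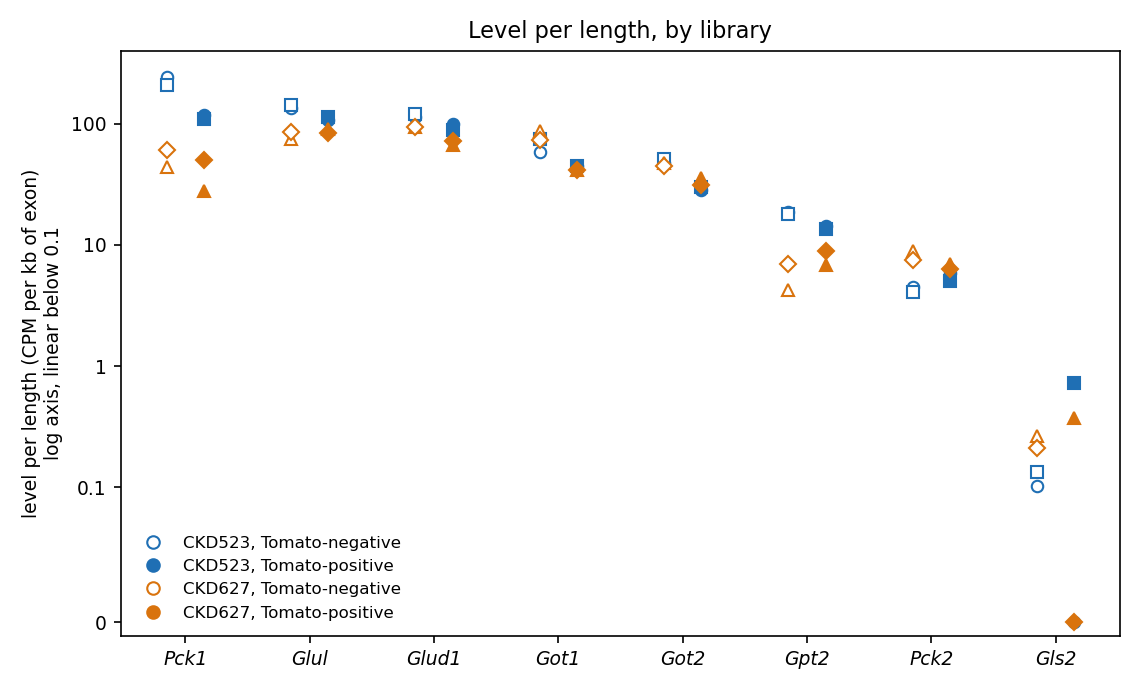
Level per length, in CPM per kilobase of exon on an axis that is logarithmic above 0.1 and linear below, for each library, with open symbols for Tomato-negative and filled symbols for Tomato-positive cells and colours for the prefix. Genes are ordered by their mean. The libraries of Pck1 spread most widely of the genes above 10 CPM per kilobase, and the Gls2 points at 0 are 2 positive libraries.

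Genes with the most similar pattern over the 8 libraries were looked up for each of the 8 genes, by Pearson's r of log2 CPM over genes of at least 5 CPM on average. The 8 libraries share their prefixes and identifiers, so r is a description. Got1 was closest to Mdh2 (r = 0.994), the mitochondrial malate dehydrogenase, and to Cox7a2 (0.989), a subunit of cytochrome c oxidase. Got2 was closest to Ndufs1 (0.993), a subunit of respiratory complex I, and to Nudt19 (0.991). Pck1 was closest to Neu1 and Hgd (both 0.997), Gpt2 to Dab2 and Vil1 (both 0.997), Glul to Pld1 (0.992), Glud1 to Tspan3 (0.990) and Mettl26 (0.989), and Pck2 to Msto1 (0.969) and Hes1 (0.965). For Gls2, which had few counts, the closest were Fbxo25 (0.966) and Fam50a (0.908).

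The genes around this route were described by list. In the unpaired edgeR fit none of the 74 tested genes of these lists passed (21 at an unadjusted p under 0.05). Unpaired DESeq2 called 9 of them, beside 1000 of all 14282 tested genes, and limma-voom 1, Mdh1, beside 92 of 14284. The counts below are of the paired edgeR fit, in which 3.82% of all tested genes were higher and 3.81% lower. Of the steps beside Pck1 in glucose synthesis 4 of 10 passed, Mdh1, Mdh2, Suclg1 and Fh1, all lower in Tomato-positive cells, with a list median of -0.53 where that of all tested genes was 0.01. They are enzymes of the citric acid cycle and of malate exchange. Mdh1, the cytosolic malate dehydrogenase that works with Got1 in the shuttle, was at 856, 944, 1014 and 778 CPM in the negative and 543, 522, 524 and 501 CPM in the positive libraries, without overlap (log2 difference -0.81 ± 0.13, adjusted p = 0.0111). Mdh2 differed by -0.60 ± 0.13 (adjusted p = 0.0317) and Suclg1, of succinyl-CoA ligase, by -0.66 ± 0.13 (adjusted p = 0.0185). Of the steps that commit carbon to glucose, Fbp1 was at -0.60, a difference like that of Mdh2, and narrowly missed the threshold in edgeR (adjusted p = 0.0607), while paired DESeq2 and limma-voom called it. Pcx was at -0.31 (edgeR adjusted p = 0.352) and G6pc at -0.26 (0.525).

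Of 5 tested mitochondrial carriers of glutamate, aspartate and malate 1 fell, Slc25a11, the carrier that exchanges 2-oxoglutarate and malate (-0.61 ± 0.15, adjusted p = 0.048). The aspartate-glutamate carrier gene Slc25a12 was at -0.52 (adjusted p = 0.0753) and Slc25a10 at -0.41 (0.108). Of 18 other aminotransferases and glutamate enzymes 3 fell, Aadat, Bcat2 and Kyat3, and 1 rose, Psat1. Aadat, which acts on 2-aminoadipate and kynurenine, was at 49.1, 62.0, 16.4 and 20.01 CPM in the negative and 11.6, 21.5, 7.09 and 11.5 CPM in the positive libraries (-1.45 ± 0.23, adjusted p = 0.00973). Bcat2, the mitochondrial aminotransferase of branched-chain amino acids, differed by -0.96 ± 0.16 (adjusted p = 0.0112). Psat1, the aminotransferase of serine synthesis, which also makes 2-oxoglutarate from glutamate, differed by 0.61 ± 0.14 (adjusted p = 0.0382). It was higher in 4 of 4 pairs, a pattern that 19.9% of all tested genes shared.

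Of 11 tested glutamine transporters 1 rose and none fell, a share close to that of all tested genes. Slc38a2, an uptake carrier of neutral amino acids, was at 273, 266, 224 and 249 CPM in the negative and 463, 485, 337 and 289 CPM in the positive libraries (0.57 ± 0.14, adjusted p = 0.0426). All positive libraries lay above the negative ones in CPM, but not after TMM scaling, where negative CKD523_3 was at 292 and positive CKD627_2 at 278 CPM. The positive library was the higher one in 4 of 4 pairs on both scales. Slc38a3, the glutamine carrier that the proximal tubule raises in acidosis, had 126, 102, 71 and 65 counts in the negative and 5, 50, 0 and 42 counts in the positive libraries. It was lower in 4 of 4 pairs without overlap but did not pass in edgeR (-2.74 ± 0.91, adjusted p = 0.104), while paired DESeq2 called it (adjusted p = 0.00114). Slc7a5 was at 0.65 (adjusted p = 0.184). Of 10 enzymes that use the amide nitrogen of glutamine none passed, in edgeR, DESeq2 or limma-voom (1 at an unadjusted p under 0.05 in edgeR), with Cad at 0.44 (adjusted p = 0.152), Ppat at -0.29 (0.217) and Nadsyn1 at -0.35 (0.287).

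Of 8 tested genes of ammonia and acid transport 2 fell. Car4, the membrane carbonic anhydrase of the brush border, was at 148, 154, 81.9 and 67.8 CPM in the negative and 47.1, 55.9, 30.1 and 31.4 CPM in the positive libraries, without overlap (-1.46 ± 0.15, adjusted p = 0.00178). It passed the paired fit also without any 1 of the pairs. Slc12a1, the salt carrier of the loop of Henle that also takes up ammonium, differed by -1.04 ± 0.23 (adjusted p = 0.0287). As a marker of that segment it fell together with 4 of the other 5 loop of Henle markers.

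Of 12 regulators 1 rose and 2 fell. Myc, a transcription factor that drives glutamine use in growing cells, was at 113, 74.9, 84.6 and 54.7 CPM in the negative and 206, 174, 123 and 107 CPM in the positive libraries (0.86 ± 0.14, adjusted p = 0.0115), higher in 4 of 4 pairs with overlapping groups. Cryz, which encodes zeta-crystallin, differed by -0.60 ± 0.15 (adjusted p = 0.0457), and Sirt3, a mitochondrial deacetylase, by -0.62 ± 0.14 (adjusted p = 0.0319). Leaving out a pair leaves 6 libraries, and the paired fit then called between 203 and 1319 genes in place of 1089. Without the pair CKD523_3, Mdh1, Mdh2, Suclg1, Slc25a11, Aadat, Psat1, Slc38a2, Slc12a1, Myc, Cryz and Sirt3 no longer passed, with adjusted p between 0.0629 (Aadat) and 0.218 (Slc38a2). Without CKD627_2 the calls of Bcat2, Mdh2, Suclg1, Slc25a11, Psat1, Slc38a2, Slc12a1, Myc, Cryz and Sirt3 were lost, between 0.0601 (Bcat2) and 0.164 (Psat1). Without CKD523_2 those of Mdh2, Suclg1, Slc25a11, Psat1, Slc38a2, Slc12a1, Cryz and Sirt3 were lost, between 0.0579 (Psat1) and 0.162 (Slc38a2), and without CKD627_1 that of Slc25a11 (0.0557). The log2 differences kept their sign and much of their size in these fits, between -0.88 and -0.76 for Mdh1, between -0.70 and -0.64 for Suclg1, between -0.67 and -0.57 for Sirt3 and between 0.75 and 0.97 for Myc.

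**Figure D5:**
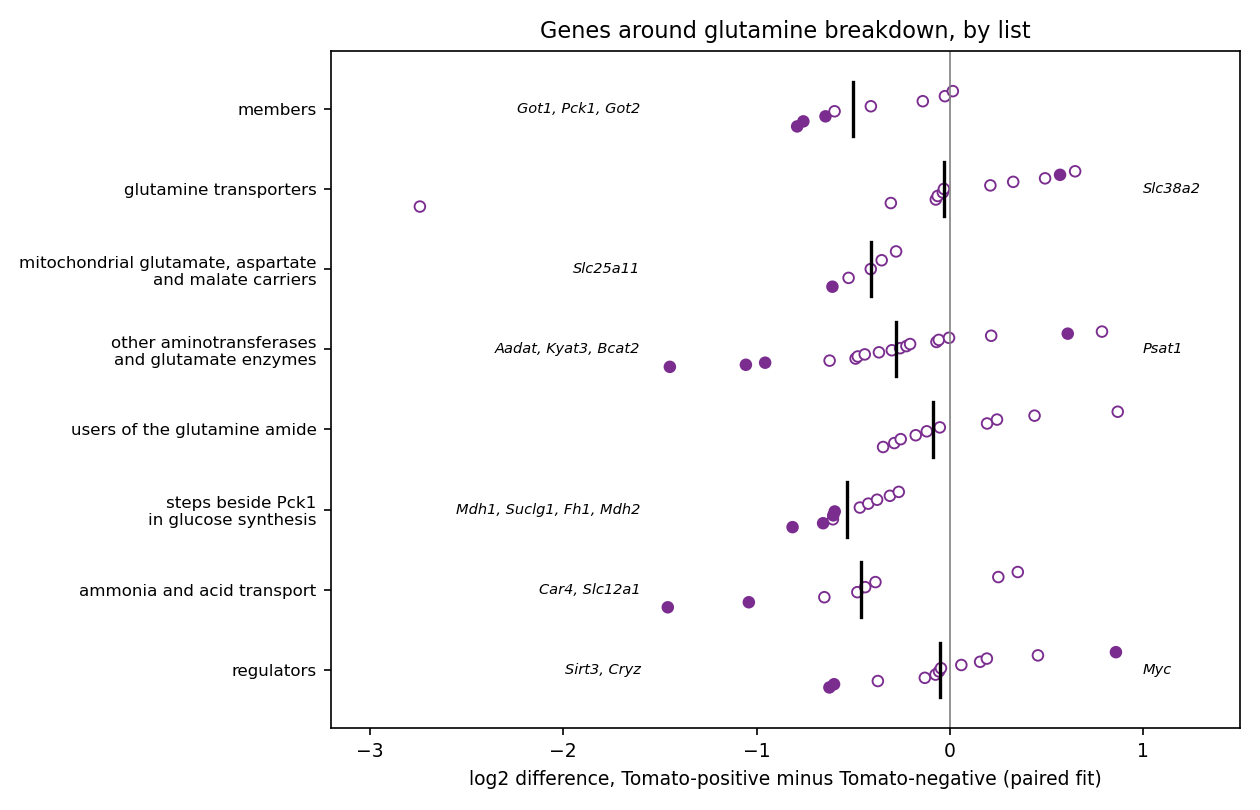
Log2 difference of the paired fit, Tomato-positive minus Tomato-negative, for each tested gene of the 8 described here (members) and of 7 lists of related genes. Filled points passed an edgeR adjusted p under 0.05 and are named at the side, and black bars are list medians, at -0.50 for the 8 genes and -0.53 for the steps in glucose synthesis.

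Between the prefixes all 10 steps in glucose synthesis had a negative log2 difference. Pcx (-1.45), Fbp1 (-1.57), G6pc (-1.45) and Suclg1 (-0.37) passed and were lower in CKD627, and Mdh1 and Mdh2, like Got1 and Got2, did not pass. Of the other aminotransferases and glutamate enzymes 9 of 18 were lower and 2 higher, with Psat1 at -1.41 (adjusted p = 0.000224). Glutamine transporters went both ways, 5 of 11 lower and 2 higher, as did ammonia and acid transport, 3 of 8 lower and 3 higher. Mitochondrial carriers had 1 of 5 lower and 1 higher, and users of the glutamine amide 1 of 10 lower and none higher. In this comparison 11.4% of all tested genes were lower in CKD627 and 9.66% higher. The regulators that were lower, 5 of 12, included Hnf4a (-1.72, adjusted p = 0.00178), a factor of proximal tubule identity that was also on the list of that segment's markers.

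Markers of the cell types moved with the Tomato groups as well. In the paired fit 9 of 18 proximal tubule markers were lower in Tomato-positive cells and none higher. The median log2 difference of the 18 was -0.82, against -0.50 for the 8 genes. Slc5a2 was higher in 4 of 4 pairs, and paired DESeq2 called it. Within CKD523 12 of the 18 markers were lower and none higher (median -1.31). Within CKD627 5 of the 18 markers were lower and 2 higher (median -0.29). The sum of these markers overlapped between the groups but was lower in the positive library of each pair, at 25025 and 12195 CPM in CKD523_2, 28472 and 12648 in CKD523_3, 7576 and 5064 in CKD627_1, and 9168 and 7352 in CKD627_2 (negative, then positive). Of the other lists, 5 of 6 loop of Henle, 3 of 5 distal tubule and 3 of 6 intercalated cell markers were lower, 7 of 7 principal cell markers higher, and none of the endothelial, fibroblast and podocyte markers passed. Of these 3 lists 0 of 6, 2 of 6 and 0 of 4 tested genes had an unadjusted p under 0.05 in edgeR, and paired DESeq2 called 2, the fibroblast collagen genes Col1a2 and Col3a1. Macrophage and leukocyte markers, of which 6 of 9 were tested, summed to between 33.4 and 54.5 CPM in all libraries. Of these Cd68 alone passed in edgeR, higher in Tomato-positive cells, and Cd3e was at 0. Csf1r went the other way, lower in 4 of 4 pairs without overlap, and paired DESeq2 and limma-voom called it. The marker with the highest mean of its list was Slc34a1 for the proximal tubule, at 1128 to 6433 CPM in the negative and 1253 to 4636 CPM in the positive libraries. For principal cells it was Aqp2, at 74.5 to 1077 and 480 to 2688 CPM, and for the loop of Henle Umod, at 2805 to 11951 and 1290 to 5569 CPM. Slc12a3 of the distal tubule, at 742 to 1191 CPM in the negative and 85.8 to 403 CPM in the positive libraries, did not overlap. The part of these shifts in the lower Got1, Got2 and Pck1 was not tested.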

How the data were processed

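Libraries were prepared from total RNA of kidney cells using a NEBNext Ultra RNA kit, according to the protocols in the labels. Raw counts per gene symbol make up the table that the authors deposited. Its column names point to alignment with subread, per the file headers, and build mm10, edgeR 3.32.1 and limma 3.46.0 are named in the submitters' processing notes. No label or header names the counter, annotation, strand setting or treatment of reads with several matches, so reads of overlapping or near-identical genes cannot be told apart.

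Groups, identifiers and prefixes came from the titles. Genes were kept with filterByExpr (a count of 10 in 4 libraries, 15 in all) and scaled with TMM factors. The tests were 2-sided quasi-likelihood tests of edgeR 4.0.16 in R 4.3.3, adjusted by Benjamini-Hochberg over 14284 genes, with intervals at 95%. SEs are the difference over the root of F. The scripts were tested on simulated data. Alternatives used DESeq2 1.42.0, limma 3.58.1 (voom), other scaling factors and filters, and fewer libraries.

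The unpaired fit is the main one. With group means removed, the correlation over genes within each identifier was 0.464, 0.321, 0.33 and 0.465. The limit for pairing was 0.1, so the paired fit is given too. Libraries of the other identifier of a prefix correlated at 0.296 to 0.467. The genes and lists were chosen with earlier results of these data known. Named genes were the 8 genes, the 3 of each list with the smallest paired p, the marker with the highest mean of a list and the 2 most similar genes; a few that this rule names are not reported here. Fh1, Kyat3, Pcx, Fbp1, G6pc, Hnf4a, Slc5a2, Cd68, Csf1r and Cd3e were named after their values were seen.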

Additional observations from a re-analysis of the deposited data

Results flagged for a closer look

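Slc25a11, the mitochondrial carrier that exchanges 2-oxoglutarate and malate, was at 236 CPM in the Tomato-negative library CKD627_1 and between 160 and 173 CPM in the other 3 Tomato-negative libraries. The gap from that library to its nearest neighbour was 0.83 of the range of the group, just past the limit of Dixon's test at 95%. The test was run on 58 sets of 4 libraries, and chance gives a gap of that size in about 1 set in 20. The paired difference of Slc25a11 no longer passed without any 1 of the 4 pairs, with edgeR adjusted p between 0.0557 (without CKD627_1) and 0.183 (without CKD523_3).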

How the results depend on the processing

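Of the 8 genes, 1 passed in the unpaired Tomato comparison. The count was 3 with the identifier as a replicate block (Got1, Got2, Pck1) and 4 with the prefix as a covariate (also Glud1). It was 5 in CKD523 alone (Got1, Got2, Pck1, Glul, Gpt2) and 2 in DESeq2. The calls over all genes rose in these fits too. They were 85 of 14284 in the unpaired fit, 1089 with the block and 1527 with the prefix. In CKD523 alone they were 2231 of 14183, and in DESeq2 1000 of 14282. The count of the 8 genes was 0 with upper-quartile factors, with library size only and with no filter beyond 1 count. Each of these had 2 genes at an unadjusted p under 0.05. The count was between 0 and 0 whenever a library or a pair was left out. The paired count of 3 ranged from 0 to 3 over the pairs left out and was 3 or 4 in the other alternatives. The prefix count lay between 3 and 5 in each alternative, with Pck2 higher in CKD627 in DESeq2, with library size only, in limma-voom, in the Tomato-negative libraries alone and without positive CKD523_2 or CKD627_2. The count for the difference between prefixes was 0. No count is given for that test with a library left out, which leaves 1 library of its prefix and Tomato group. The block changed no other call of the 8 genes.

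Some log2 differences changed sign, and the cause was not tested. Those of Gls2 (0.62 unpaired, -0.60 paired) and Slc7a5 (0.70 unpaired) were not near 0 in the edgeR fits of all libraries. In the unpaired comparison Gls2 was at -0.5962 with the block, -0.4275 in CKD627 alone, -1.445 in limma-voom and between -0.70 and 1.099 with libraries left out. Gpt2 was at 0.01564 with the block, 0.004732 with the prefix, 0.4628 in CKD627 alone, 0.03255 in limma-voom and between -0.503 and 0.1032. Glul was at 0.08881 and Slc7a5 at -0.002343 in CKD627 alone, and Pck2 at 0.2623 in CKD523 alone and between -0.2045 and 0.1145. In the paired fit Gls2 was at 0.2636 in limma-voom and between -2.14 and 0.3825. Gpt2 was at -0.01737 with upper-quartile factors, -0.004311 without the filter, -0.04231 in limma-voom and between -0.1951 and 0.1734. Pck2 was at 0.01347 with library size only and between -0.1505 and 0.09527. Between the prefixes, library size only gave 0.08017 for Got1 and 0.0404 for Got2. Got1 was at 0.03966 in Tomato-negative libraries alone and between -0.1785 and 0.01922 with libraries left out, and Got2 at 0.05745 in Tomato-positive libraries alone. Among the 8 genes, low counts limit Gls2 most.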
